A study of Homo sapiens with 4 samples.

Results

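Distal intronic peaks of ZHX2, a transcription factor with zinc fingers and homeodomains, were sites of chromatin immunoprecipitation signal placed in introns, away from transcription starts, by the authors' annotation. A peak was a member when the authors' annotation class began with intron and the distance to the nearest annotated start, in either direction, was above 5000 bp. By this rule 547 of 8871 listed peaks (6.17%) were distal intronic. Measured signal played no part in the rule.

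The study profiled DB cells, a human line grown from a diffuse large B-cell lymphoma, with an antibody against ZHX2. It set cells labelled Mut4 against cells labelled ZHX2, with 1 ChIP library and 1 input library for each. The title of the series names phase separation of ZHX2, ferroptosis (an iron-dependent death by lipid peroxidation) and SLC3A2, the heavy chain of an amino acid transporter. The labels give neither the residues changed in Mut4, nor how the protein was expressed, nor whether the cells kept their own ZHX2, a target of the same antibody. With 1 library per arm there was no replicate error and no test between the conditions. Every fold below is Mut4 over ZHX2, and its exact 95% interval covers counting error only. In such a population the share of cells with a bound site and the amount bound per cell cannot be told apart.

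Introns are removed from the transcript, but their DNA can hold enhancers, which act on a promoter at a distance, and alternative promoters that lie far inside a gene. Long genes, many of them neuronal or adhesion genes, have the longest introns and so the most room far from a start. A distal intronic site need not act on the gene around it, and ChIP signal alone does not say that it acts on any gene.

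The promoter sequences that some of these peaks touch are shown first, since they bear on how distal the peaks are. The distance in the rule came from the authors' annotation. Against the RefSeq annotation of GRCh38.p14, 14 of the 506 members on chromosomes with promoter entries lay within 1000 bp of a start, and 6 held one. Their median log2 fold was -0.18, with 6 higher and 8 lower in Mut4, against 0.19 for the 492 members farther away. Of these, 7 overlapped a RefSeq window of 300 bases around a start (250 before it and 50 after). A selection of 4 windows is printed from RefSeq, GRCh38.p14, in lower case and 5′ to 3′ as the table gives them for the gene's strand. Capitals mark the GC box, GGGCGG on either strand. The CCAAT box was searched as CCAAT on either strand and was in none of these 4. The windows at the BCOR and RAP1GAP2 peaks belong to members lower in Mut4, the TMEM181 window to a member near a fold of 1 and the LOC107987299 window to a member above 1.
LOC107985687 (in BCOR, chrX:40106437-40106736, minus strand): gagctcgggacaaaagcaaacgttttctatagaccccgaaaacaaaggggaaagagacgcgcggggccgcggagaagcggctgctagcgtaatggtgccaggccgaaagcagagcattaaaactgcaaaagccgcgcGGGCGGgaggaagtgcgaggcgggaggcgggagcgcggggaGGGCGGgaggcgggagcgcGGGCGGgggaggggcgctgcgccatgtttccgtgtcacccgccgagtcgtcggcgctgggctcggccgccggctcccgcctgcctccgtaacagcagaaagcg
RAP1GAP2 (chr17:2853434-2853733, plus strand): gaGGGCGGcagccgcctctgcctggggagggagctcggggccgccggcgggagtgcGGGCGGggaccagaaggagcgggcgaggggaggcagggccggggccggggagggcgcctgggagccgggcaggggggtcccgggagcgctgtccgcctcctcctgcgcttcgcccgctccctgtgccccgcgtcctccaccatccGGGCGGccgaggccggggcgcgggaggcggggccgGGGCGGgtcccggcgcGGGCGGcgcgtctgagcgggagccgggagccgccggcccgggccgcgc
TMEM181 (chr6:158559841-158560140, plus strand): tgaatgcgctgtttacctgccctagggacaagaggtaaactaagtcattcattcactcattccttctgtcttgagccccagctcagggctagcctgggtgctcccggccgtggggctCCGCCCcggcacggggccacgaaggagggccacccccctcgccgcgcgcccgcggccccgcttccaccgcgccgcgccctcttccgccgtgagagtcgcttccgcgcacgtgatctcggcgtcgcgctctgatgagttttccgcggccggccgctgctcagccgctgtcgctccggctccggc
LOC107987299 (near SLC37A1, chr21:42534603-42534902, minus strand): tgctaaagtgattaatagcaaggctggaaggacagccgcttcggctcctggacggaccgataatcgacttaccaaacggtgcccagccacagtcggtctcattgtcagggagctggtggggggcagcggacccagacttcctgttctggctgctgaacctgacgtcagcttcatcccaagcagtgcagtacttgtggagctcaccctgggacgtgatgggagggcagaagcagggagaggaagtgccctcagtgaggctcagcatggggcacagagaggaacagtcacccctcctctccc

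The RAP1GAP2 window was the richest of these in G and C, at 84.3%, and held 44 CpG and 5 GC boxes. The BCOR window had 68% G+C, 39 CpG and 3 GC boxes, and the TMEM181 window 69%, 36 CpG and 1 GC box. The window near SLC37A1 had 59% G+C, 10 CpG and neither box. These values describe whole windows, which the peaks covered only in part except at BCOR. There the peak covered all 300 bases, against 209 at TMEM181, 121 at RAP1GAP2 and 88 near SLC37A1. Over all 35116 RefSeq windows the medians were 58.7% G+C and 14 CpG, 45.0% held a GC box and 34.6% a CCAAT box on either strand. Of the peaks over these windows, that in BCOR, which encodes a corepressor partner of BCL6, had 14 reads in Mut4 and 72 in ZHX2, a fold of 0.416 (0.217 to 0.745). The RAP1GAP2 peak, at the gene of a GTPase-activating protein for Rap, had 2 reads in Mut4 and 19 in ZHX2, a fold of 0.225 (0.0255 to 0.934). The TMEM181 peak had 21 reads in Mut4 and 53 in ZHX2, a fold of 0.848 (0.486 to 1.43). The SLC37A1 peak had 29 reads in Mut4 and 45 in ZHX2, a fold of 1.38 (0.834 to 2.25). The intervals of the first pair lay below 1 and those of the others included 1. The authors marked the first pair ZHX2-only, so they were listed through the library in which they are high. The 3 windows not printed lay at peaks whose intervals also included 1. The other LOC107987299 window, with 51% G+C, 12 CpG, a CCAAT box and no GC box, lay under a peak with 19 reads in Mut4 and 66 in ZHX2, a fold of 0.616 (0.349 to 1.04). That of LOC107985524 on chromosome 1, with 67.3% G+C, 30 CpG and 1 GC box, lay under a peak with 15 reads in Mut4 and 49 in ZHX2, a fold of 0.656 (0.341 to 1.19). That of LINC03091 on chromosome 4, with 47% G+C, 4 CpG and neither box, had 131 bases under a peak. This peak had 18 reads in Mut4 and 42 in ZHX2, a fold of 0.918 (0.497 to 1.63). A match of letters is a description of the window, not a binding site.

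Distal intronic peaks were weaker and shorter than promoter peaks. Whole read numbers per library, recovered from the deposited values, had a median of 16 per member in Mut4 (quartiles 11 and 22) and 27 in ZHX2 (quartiles 20 and 42). Promoter peaks had medians of 26 in Mut4 and 51 in ZHX2. The median member was 755 bp long (range 156 to 3239), against 1037 bp for promoters. Members held 10412 of 271694 Mut4 reads in listed peaks (3.83%) and 18385 of 541900 ZHX2 reads (3.39%). In CPM per kilobase, which takes length and library size into account, the median density of members was 75.6 in Mut4 and 60.1 in ZHX2. That of promoters was 88.3 in Mut4 and 85.7 in ZHX2.

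Relative to the authors' scaling, distal intronic peaks leaned towards Mut4. The median log2 fold of members was 0.20 (quartiles -0.18 and 0.66), against -0.0046 over all listed peaks and -0.012 for promoters. By sign 343 of 547 members (62.7%) were higher in Mut4, against 49.6% of all listed peaks, and 204 were lower, against 50.4%. Past 2-fold, 71 members were higher (background 5.31%) and 20 lower (background 8.44%). Past 4-fold, 33 were higher (background 2.06%) and 2 lower (background 1.19%). All 33 were peaks that the authors marked Mut4-only, listed through the library in which they are high. Among the 511 members marked ZHX2-only, 36 were higher and 20 lower past 2-fold, and 0 and 2 past 4-fold. Every member lower past 2-fold was thus likewise listed through the library in which it is high. The directions over all members hold under the authors' scaling and with the median peak set to 0. With unscaled reads, however, every log2 fold moves by -1.10 and the members' median becomes -0.89. Scaling to reads at peaks on unplaced contigs shifts folds by -0.95 and also turns the median. The difference between members and promoters, 0.22 in median log2 fold, is the same under any scaling.

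**Figure D1:**
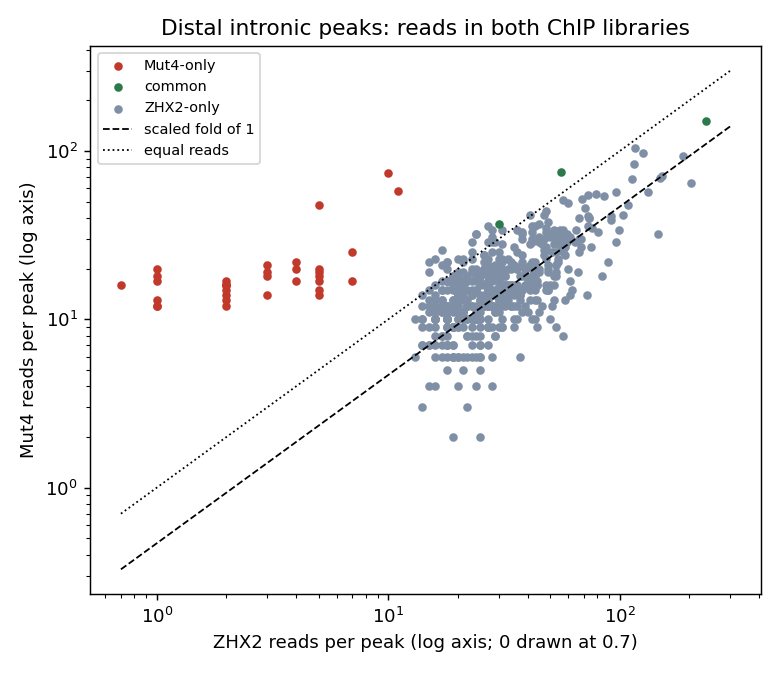
Reads per distal intronic peak in the Mut4 library (vertical, log axis) and the ZHX2 library (horizontal, log axis, 0 drawn at 0.7), coloured by the authors' peak group, with lines for a scaled fold of 1 (dashed) and for equal reads (dotted). The 33 Mut4-only peaks form a cloud at 0 to 11 ZHX2 reads, apart from the ZHX2-only peaks, which all have at least 13; with unscaled reads only the 57 peaks above the dotted line are higher in Mut4.

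Counting error was wide for sites this weak. The interval of the fold included 1 at 438 members (80.1%). It lay above 1 at 89 members, where the background over all listed peaks was 11.0%, and below 1 at 20 members, where it was also 11.0%. Of the 89, 33 were Mut4-only peaks, listed through the library in which they are high. Among the 511 ZHX2-only members the interval lay above 1 at 53 (10.4%) and below 1 at 20 (3.91%). Every member with an interval below 1 was thus listed through the ZHX2 library, in which it is high. The authors' deposited table gave 43 members that had an adjusted p under 0.05 and were higher in Mut4 (background 3.43%), and 2 that were lower (background 2.53%). Of the 43, 33 were again the Mut4-only peaks. Among ZHX2-only members 8 with such a p were higher and 2 lower. Those p-values set one library against another and contain no spread between cultures.

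Near intronic peaks, those of the same class within 5000 bp of a start, did not share the lean. Their median log2 fold was -0.012 (n = 1063), with 516 higher and 547 lower in Mut4. Distal intergenic peaks, more than 5000 bp from a start and outside genes by annotation, did: their median was 0.20 (n = 663), with 384 higher and 279 lower. Distal intergenic peaks also resembled the members in length, with a median of 760 bp, and in reads, with medians of 16 in Mut4 and 29 in ZHX2. No test was made of these differences between classes, which rest on the same pair of libraries.

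The median fold of members was above 0 at every level of signal under the authors' scaling. All listed peaks were cut into quartiles by mean signal, and the median log2 fold of members was 0.22 in the weakest quartile (n = 293), 0.13 in the second (n = 138), 0.21 in the third (n = 81) and 0.21 in the strongest (n = 35). Promoter peaks did change with signal, from -0.39 in the weakest quartile (n = 773) to 0.01, 0.10 and 0.02 in the others. Distal intergenic peaks likewise had medians above 0 in every quartile, of 0.15, 0.22, 0.30 and 0.28 from the weakest to the strongest. In the weakest quartile 62.5% of members were higher in Mut4, against 54.1% of distal intergenic, 36.4% of near intronic and 22.8% of promoter peaks. The ZHX2-only members alone had medians of 0.098, 0.13, 0.19 and 0.15 from the weakest quartile to the strongest. In the weakest quartile ZHX2-only promoters had a median of -0.42 and ZHX2-only distal intergenic peaks one of -0.0010. Within these quartiles the differences between class medians do not depend on the scaling. Each sign does, and so do the shares of peaks higher in Mut4.

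**Figure D2:**
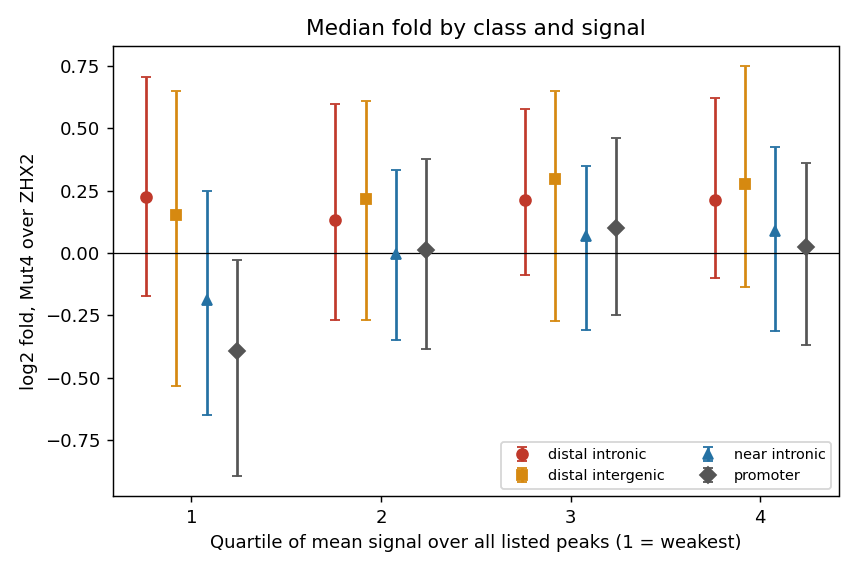
Median log2 fold, Mut4 over ZHX2 under the authors' scaling, by quartile of mean signal for distal intronic, distal intergenic, near intronic and promoter peaks; bars span the quartiles of the peaks. The distal intronic medians stay between 0.13 and 0.22 and the distal intergenic medians between 0.15 and 0.30. The promoter median in the weakest quartile is -0.39. Unscaled reads would move every point by -1.10.

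By the authors' peak group, 33 members were Mut4-only, 3 common to both arms and 511 ZHX2-only. Mut4-only peaks were 6.03% of distal intronic, 5.88% of distal intergenic, 1.88% of near intronic and 0.776% of promoter peaks. The group marks came from peak calls on the same libraries, so folds within a group are a description. Mut4-only members were short, with a median of 177 bp (range 156 to 491), whereas the shortest ZHX2-only member was 568 bp long. They had a median of 17 reads in Mut4 (quartiles 15 and 20) and 3 in ZHX2 (quartiles 2 and 5), and a median log2 fold of 3.69. They were the 33 members past 4-fold, and 31 of them were shorter than 300 bp. Outside the members the 154 listed peaks under 300 bp were likewise all Mut4-only. The ZHX2-only members by themselves still leaned towards Mut4 under the authors' scaling, with a median of 0.15, 307 higher and 204 lower. Past 2-fold lay 36 of them higher and 20 lower.

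The Mut4-only members with most signal lay in or beside long genes and noncoding transcripts. The strongest, in an intron of the long noncoding RNA LINC01606 at chr8:57205786-57206277, had 74 reads in Mut4 and 10 in ZHX2, a fold of 15.8 (8.15 to 34.4). A second peak in the same transcript had 20 reads in Mut4 and 1 in ZHX2, a ratio of 42.8 with an interval of 6.85 to 1775. The peak at chr1:2652231-2652392, inside TTC34 and nearest to the start of the metalloprotease gene MMEL1, had 48 reads in Mut4 and 5 in ZHX2, a fold of 20.6 (8.22 to 66.2). All of these intervals lay far above 1. A peak on chromosome 21 lay 9991 bp from its nearest start, that of the ribosomal RNA copy RNA5-8SN3. It had 58 reads in Mut4 and 11 in ZHX2, a fold of 11.3 (5.87 to 23.9). Ribosomal RNA copies are nearly identical, so reads there may belong to another copy. One member had no ZHX2 read: the peak nearest AC091114.1 on chromosome 8, with 16 reads in Mut4, was at least 11.4-fold higher in Mut4 against a limit of 3 reads.

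Other Mut4-only members had fewer reads, and several lay in genes of the nervous system. In CNTNAP2, a neurexin-family adhesion gene, the peak had 20 reads in Mut4 and 5 in ZHX2, a fold of 8.57 (3.12 to 29.2). In SHANK2, a postsynaptic scaffold gene, it had 12 reads in Mut4 and 2 in ZHX2, a ratio of 12.8 (2.86 to 118). In TENM4, a teneurin adhesion gene, it had 12 reads in Mut4 and 1 in ZHX2, a ratio of 25.7 (3.80 to 1098). CDH4, which encodes R-cadherin, held a peak with 17 reads in Mut4 and 4 in ZHX2, a fold of 9.10 (2.97 to 37.2). HIPK2, which encodes a homeodomain-interacting protein kinase, held 2 such peaks within one intron, with 13 and 17 reads in Mut4 against 2 and 7 in ZHX2. Each rests on few reads, as the widths of the intervals show.

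The 3 common members were all higher in Mut4 under the authors' scaling. The peak at AC016590.1 on chromosome 19 (chr19:37293361-37294601), 18.2 kb from the zinc finger gene ZNF875, had 75 reads in Mut4 and 56 in ZHX2, a fold of 2.87 (2.00 to 4.13). It thus had more reads in the smaller library. The peak in C7orf50 had 37 reads in Mut4 and 30 in ZHX2, a fold of 2.64 (1.59 to 4.43). The peak nearest RNA5-8SN2, the strongest of all members, had 152 reads in Mut4 and 237 in ZHX2, a fold of 1.37 (1.11 to 1.69), with the same doubt about rRNA copies.

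Among members at or above the members' median signal, those with the largest folds outside the Mut4-only and common groups lay on chromosome 7. The peak nearest the start of CD36, which encodes a fatty acid and lipoprotein scavenger receptor, lay 8372 bp upstream of it, inside no RefSeq gene. It had 36 reads in Mut4 and 27 in ZHX2, a fold of 2.86 (1.69 to 4.89). CACNA2D1, which encodes an auxiliary subunit of voltage-gated calcium channels, and AGMO, the gene of an enzyme that cleaves ether lipids, each held a peak with 32 reads in Mut4 and 24 in ZHX2. A peak in DPP6, which encodes an auxiliary subunit of Kv4 potassium channels, had 26 reads in Mut4 and 17 in ZHX2, a fold of 3.28 (1.71 to 6.43). The authors' deposited table gave the CD36 peak an adjusted p of 0.0169.

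Fewer members were lower in Mut4, and these lay on several chromosomes. All 204 of them were ZHX2-only, so they were listed through the library in which they are high. The lowest fold at or above the median signal was at LINC01806 on chromosome 2, with 8 reads in Mut4 and 57 in ZHX2, a fold of 0.301 (0.124 to 0.633). SKI, which encodes a SMAD corepressor, held a strong intronic peak at chr1:2255122-2256720 with 32 reads in Mut4 and 146 in ZHX2, a fold of 0.469 (0.310 to 0.692). The authors' deposited table gave adjusted p-values of 0.0381 to LINC01806 and 0.0315 to SKI, the only members lower in Mut4 below 0.05 there. CELSR3, an atypical cadherin gene, had 18 reads in Mut4 and 84 in ZHX2, a fold of 0.459 (0.259 to 0.770). SLC19A1, the reduced folate carrier gene, had 13 reads in Mut4 and 58 in ZHX2, a fold of 0.480 (0.241 to 0.886). All these intervals lay below 1 under the authors' scaling. With unscaled reads these peaks stay lower in Mut4, as do 490 of all 547 members. The lowest of all members was a weaker peak nearest MNX1-AS2, with 2 reads in Mut4 and 25 in ZHX2, a ratio of 0.171 (0.0197 to 0.687).

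The strongest ZHX2-only members differed little or in both directions. The peak in DHRSX, near DHRSX-IT1 in the first 3 Mb of chromosome X, had 93 reads in Mut4 and 188 in ZHX2, a fold of 1.06 (0.817 to 1.37). The peak in BCAS4, a gene first found amplified in breast cancer, had 71 reads in Mut4 and 152 in ZHX2, a fold of 1.00 (0.744 to 1.33). The peak in SH2B2, an adaptor of receptor signalling, had 65 reads in Mut4 and 204 in ZHX2, a fold of 0.682 (0.508 to 0.906). The strong peak nearest AC068295.1 at chr3:187934083-187936312 had 104 reads in Mut4 and 117 in ZHX2, a fold of 1.90, with a lower bound of 1.45. By RefSeq it lay in no gene, and the nearest coding genes were BCL6, the germinal centre repressor, 189 kb away, and LPP, 217 kb away. BCL6 was not assigned to it by the deposited annotation.

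Distance from the start went with higher folds only in the outer bins. The median log2 fold was 0.16 at 5 to 10 kb (n = 169), 0.13 at 10 to 20 kb (n = 137), 0.15 at 20 to 50 kb (n = 151), 0.47 at 50 to 100 kb (n = 64) and 0.48 beyond 100 kb (n = 26). Chromosome 7 moved with this: it held 8.88%, 7.30%, 14.6%, 25% and 38.5% of the members in the same bins. Without chromosome 7 the medians were 0.16, 0.12, 0.098, 0.21 and 0.27, the last over 16 members. Mut4-only peaks, listed through the library in which they are high, were 4.14%, 6.57%, 3.97%, 12.5% and 11.5% of the bins. ZHX2-only members alone had medians of 0.13, 0.098, 0.098, 0.26 and 0.46. With unscaled reads all of these medians are below 0. Peaks upstream of the nearest start (n = 236) had a median of 0.17 and those downstream (n = 311) one of 0.21. The farthest members were in or near CFAP299, CNTN5, RELN and AL589678.1. Of these, the peak in RELN, which encodes the extracellular matrix protein reelin, had 22 reads in Mut4 and 18 in ZHX2, a fold of 2.62 (1.34 to 5.18).

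**Figure D3:**
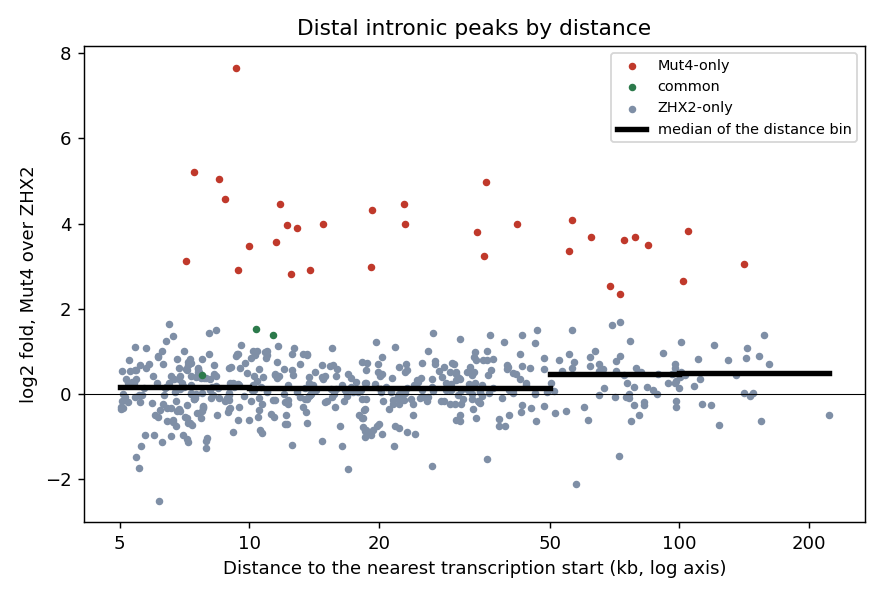
Log2 fold of each distal intronic peak, Mut4 over ZHX2 under the authors' scaling, against the distance to the nearest annotated start (kb, log axis), coloured by peak group; black lines are the medians of 5 distance bins. The medians are 0.13 to 0.16 up to 50 kb and 0.47 and 0.48 beyond, where those of ZHX2-only peaks are 0.26 and 0.46. Mut4-only peaks lie at all distances. Unscaled reads would move every point by -1.10.

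At the border of the rule the members just inside were AC016727.1 at 5026 bp (8 reads in Mut4 and 22 in ZHX2), OSBPL3 at 5034 bp (16 reads in Mut4 and 42 in ZHX2) and LINC02268 at 5061 bp (10 reads in Mut4 and 24 in ZHX2). Just outside were a BCOR peak at 4939 bp (5 reads in Mut4 and 22 in ZHX2), LINC01754 at 4972 bp (25 reads in Mut4 and 39 in ZHX2) and ALOX5 at 4978 bp (8 reads in Mut4 and 21 in ZHX2).

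Intron number set the members apart from near intronic peaks. The first intron of the annotated transcript held 210 members (38.4%), against 857 near intronic peaks (80.6%), which by their distance lie close to a start. Members in intron 1 had a median log2 fold of 0.18, those in intron 2 (n = 122) of 0.25 and those in later introns (n = 215) of 0.20. Transcripts of coding genes held 425 members (77.7%) and those of long noncoding RNAs 111. By the gene with the nearest start, members nearest a long noncoding RNA had a median of 0.34 (n = 131), against 0.16 for those nearest a coding gene (n = 287). Of these groups 13 and 13 members were Mut4-only.

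By RefSeq coordinates 463 members (84.6%) lay inside a gene. The gene with the nearest start in the deposited annotation could be matched to RefSeq, by Ensembl identifier, symbol or synonym, for 397 of the 547 members (72.6%). For 259 members (47.3%) it was a gene that held the peak, and their median log2 fold was 0.16. For 94 the peak lay inside a gene but outside the one with the nearest start, with a median of 0.15, so these groups differed little. The 110 members inside a gene whose nearest gene had no RefSeq match had a median of 0.30, with 11 Mut4-only. The genes around members were long, with a median over members of 204356 bp, against 54297 bp over 646 near intronic peaks. The distance in the rule itself favours long genes, and a gene with several peaks was counted once for each. Where a position along a single gene could be given, members lay at a median of 44.4% of the gene from its start (quartiles 22.8 and 65.5, n = 365).

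A promoter peak was listed for the gene around 133 members, in 93 genes. At 90 of the 133 the log2 fold of the member was above that of the promoter of its own gene, with a median difference of 0.33 (quartiles -0.20 and 0.89). Among ZHX2-only members it was above at 89 of 132. The promoters concerned had a median log2 fold of -0.19. These differences do not depend on the scaling, and no test was made of them, since members of one gene share a promoter.

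In all, 373 genes held members, 61 held 2 or more and 16 held 3 or more. CUX1, the gene of a cut-homeodomain factor, held most, with 8 members over 137514 bp, all ZHX2-only. Of these 5 were higher and 3 lower in Mut4, with a median log2 fold of 0.38. The strongest of them, at chr7:101988324-101991240, had 98 reads in Mut4 and 126 in ZHX2, a fold of 1.67 (1.27 to 2.19). It was the only one of the 8 whose interval lay apart from 1. The CUX1 promoter had 57 reads in Mut4 and 171 in ZHX2, a log2 fold of -0.49, below all 8.

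AUTS2, a gene of neuronal development, and RPTOR, which encodes the scaffold of mTORC1, held 5 members each. Those of AUTS2 had 13, 20, 25, 34 and 44 reads in Mut4 against 43, 36, 53, 55 and 48 in ZHX2, and the interval of the last lay above 1 (fold 1.96, 1.27 to 3.02). Those of RPTOR ranged from a fold of 0.647 (0.412 to 0.989), with 29 reads in Mut4 and 96 in ZHX2, to 2.02 (1.23 to 3.33), with 34 reads in Mut4 and 36 in ZHX2. In RPTOR one member was thus apart from 1 on each side, and the intervals of the other members included 1.

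All members of DPP6, PTPRN2, AGMO, PLCB1, SIPA1L3, LHPP and FGF12 were higher in Mut4 under the authors' scaling, by sign. Of the 4 members in DPP6, 2 were Mut4-only and so were listed through the library in which they are high, with 21 and 15 reads in Mut4 against 3 and 5 in ZHX2. The ZHX2-only members there had 26 and 22 reads in Mut4 against 17 and 21 in ZHX2, with folds of 3.28 (1.71 to 6.43) and 2.24 (1.18 to 4.29). PTPRN2, a tyrosine phosphatase-like gene of secretory granules, likewise held 2 Mut4-only members, with 19 and 17 reads in Mut4 against 3 and 2 in ZHX2. Its ZHX2-only member had 11 reads in Mut4 and 19 in ZHX2, a fold of 1.24 (0.533 to 2.74), not apart from 1. AGMO held 3 ZHX2-only members with 32, 23 and 23 reads in Mut4 against 24, 20 and 31 in ZHX2, and the intervals of the first pair lay above 1. PLCB1, a phospholipase C gene, held 3 with 31, 19 and 17 reads in Mut4 against 28, 25 and 19 in ZHX2, of which the first had an interval above 1 (fold 2.37, 1.38 to 4.10). In SIPA1L3, which encodes a Rap GTPase-activating protein, the strongest of 4 had 84 reads in Mut4 and 115 in ZHX2, a fold of 1.56 (1.17 to 2.09), and the intervals of the other members included 1. The promoter of SIPA1L3 had 12 reads in Mut4 and 32 in ZHX2.

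BCOR was the gene with 3 or more members that were all lower in Mut4. They had 14, 8 and 10 reads in Mut4 against 72, 25 and 24 in ZHX2. The interval of 1 of the 3 lay below 1, that of the peak over the printed RefSeq window. The BCOR promoter had 6 reads in Mut4 and 56 in ZHX2, a log2 fold of -2.11, further below 0 than any of the 3. IL3RA, which encodes the interleukin-3 receptor alpha chain, held 2 members with 4 and 15 reads in Mut4 against 28 and 62 in ZHX2. RAP1GAP2 likewise held 2, with 2 and 13 reads in Mut4 against 19 and 52 in ZHX2. The interval of each of these 4 peaks lay below 1. All members of BCOR, IL3RA and RAP1GAP2 were ZHX2-only, listed through the library in which they are high.

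**Figure D4:**
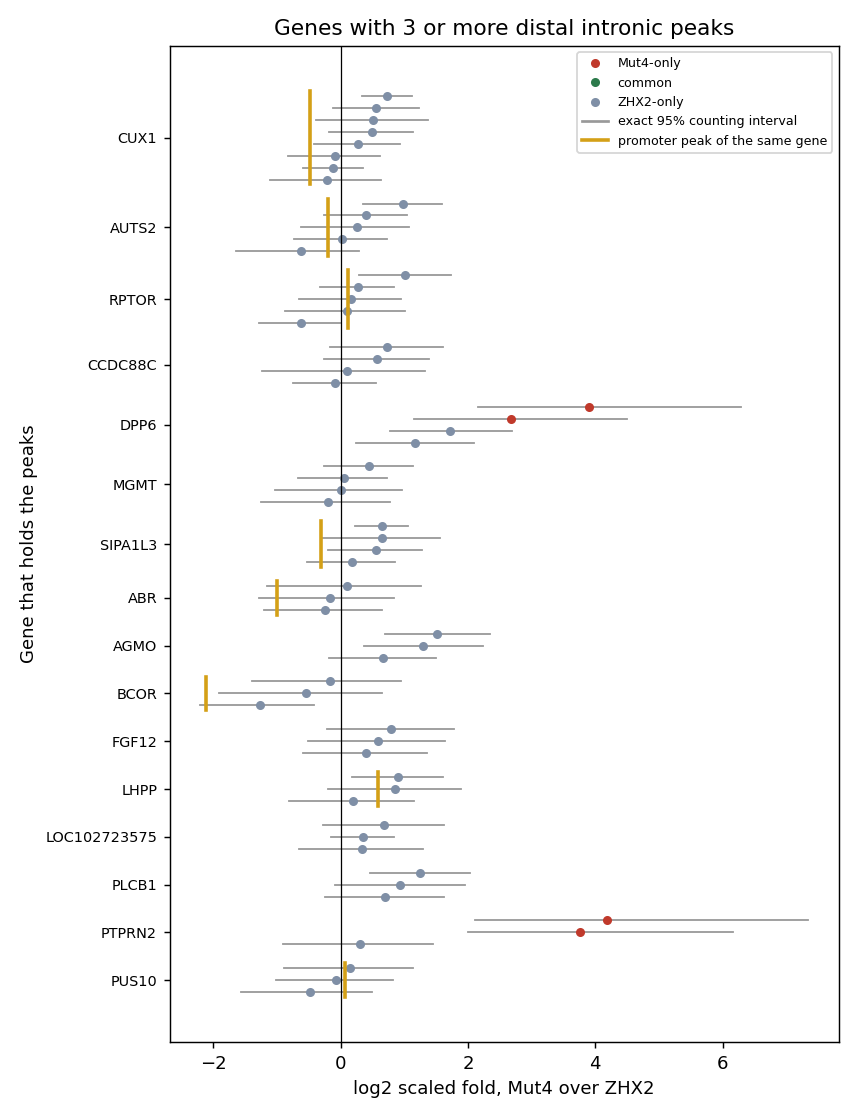
Log2 scaled fold, Mut4 over ZHX2, of each member in the 16 genes with 3 or more distal intronic peaks, with exact 95% counting intervals; gold lines mark the promoter peak of the same gene where one is listed. All members of DPP6, PTPRN2 and AGMO lie right of 0 and all 3 of BCOR left of 0; unscaled reads would move every point by -1.10.

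Members were unevenly spread over chromosomes, and so were their folds. Members were 6.17% of all listed peaks, but 11.5% of the 636 on chromosome 7 and 12.7% of the 315 on chromosome 8. On chromosome 11 they were 8.18% of 550 listed peaks, and on chromosome 19 they were 3.51% of 855. Chromosome 7 held 73 members (13.3% of all members), 56 higher and 17 lower in Mut4 with a median log2 fold of 0.54. It held 11 of the 33 Mut4-only members. The medians were also high on chromosome 20 (0.71, 26 of 30 higher), chromosome 11 (0.56, 40 of 45 higher) and chromosome 8 (0.50, 29 of 40 higher). They were below 0 on chromosome X (-0.21, 3 of 16 higher), chromosome 4 (-0.14, 4 of 16 higher), chromosome 17 (-0.13, 11 of 29 higher) and chromosome 2 (-0.07, 19 of 46 higher). They were slightly below 0 on chromosome 1 (-0.03, 11 of 25 higher) and chromosome 6 (-0.02, 14 of 29 higher). With fewer than 10 members each, chromosomes 9 (-0.22), 16 (-0.14) and 22 (-0.53) were also below 0. With unscaled reads the medians of all these chromosomes are below 0. Promoter peaks had medians of 0.10 on chromosome 7, 0.08 on chromosomes 20 and 11 and -0.05 on chromosome 8. Promoters had medians of -0.31 on X, -0.18 on chromosome 4, 0.01 on chromosome 17 and -0.05 on chromosome 2. On X and chromosome 4 they were thus as low as the members or lower. Distal intergenic peaks had medians of 0.51 on chromosome 7, 0.62 on chromosome 20, 0.51 on chromosome 11 and 0.43 on chromosome 8. Of 19 chromosomes with at least 10 members, the member median was above 0 on 13 under the authors' scaling. It was above the promoter median on 17, with differences of -0.15 to 0.64. Copy number and input signal along the chromosomes were not analysed here, and their part in these folds was not tested.

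**Figure D5:**
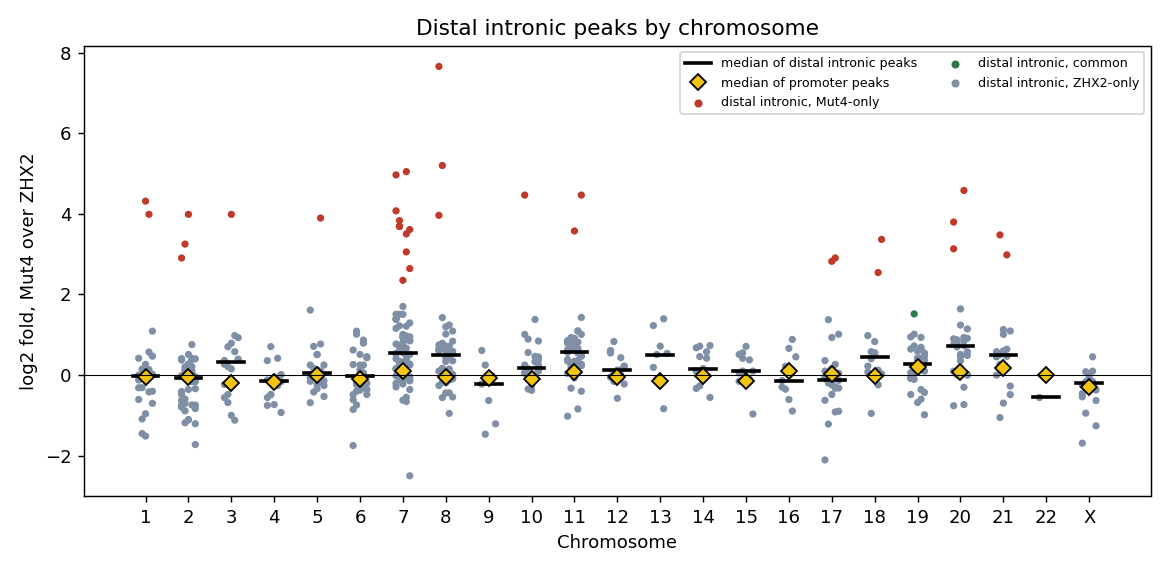
Log2 fold of each distal intronic peak, Mut4 over ZHX2 under the authors' scaling, by chromosome and coloured by peak group; black bars are the medians of these peaks and gold diamonds those of promoter peaks on the same chromosome. The black bars stand at 0.50 or higher on chromosomes 7, 8, 11, 13 and 20. They stand below 0 on chromosomes 1, 2, 4, 6, 9, 16, 17, 22 and X. On chromosome 7 stand 11 Mut4-only peaks. Unscaled reads would move every point by -1.10.

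Beyond 150 Mb on chromosome 7, a stretch that holds DPP6 and PTPRN2, 5 of 9 members were Mut4-only and 8 of 9 were higher. Before it, 6 of 64 were Mut4-only, and the median log2 fold was 0.50 with 48 higher. On chromosome X the 8 members in the first 3 Mb, which include those of IL3RA and DHRSX, had a median of -0.23 and the 8 beyond had one of -0.21. Members within 10 kb of another member (n = 74) had a median of 0.34, with 52 higher.

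Gene lists for the tissue and its pathways covered 536 genes, and 51 of them had a member, 80 members in all. Of these 55 were higher and 25 lower in Mut4 under the authors' scaling, with a median log2 fold of 0.36, beside 0.20 for all members. By sign 62.7% of all members and 49.6% of all listed peaks were higher, which bears on the counts of every list. SLC3A2, ZHX2 and the other genes of ferroptosis had no member (0 of 33 list genes). The lists of germinal centre and lymphoma genes (30), of NF-kappaB and toll-like receptor genes (19), of T cell markers (15) and of myeloid markers (11) had none either. Of the 51 list genes with a member, 21 were long neuronal and adhesion genes, so few were spread over the other lists. A count of 0 on lists of these sizes is therefore not a result about their genes. The B cell list had members at 2 of 23 genes. These are sites of binding, and they do not measure which of the marker genes the cells express.

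The list of long neuronal and adhesion genes held most members, 30 in 21 of 58 genes. Of these 24 were higher and 6 lower in Mut4, with a median log2 fold of 0.48, and 5 were Mut4-only. By sign 62.7% of all members, 60.1% of ZHX2-only members and 49.6% of all listed peaks were higher. Among the 25 ZHX2-only ones 19 were higher, with a median of 0.36, and among the 23 outside chromosome 7 it was 18, with a median of 0.48. Apart from the Mut4-only members, which were listed through the library in which they are high, 1 member had an interval apart from 1, the AUTS2 peak with 44 reads in Mut4 and 48 in ZHX2. Over all listed peaks intervals lay above 1 at 11.0% and below 1 at 11.0%. The remaining peaks did not stand apart from a fold of 1, as in CACNA1C, a calcium channel gene, with 30 and 18 reads in Mut4 against 59 and 43 in ZHX2. With unscaled reads the 5 Mut4-only members stay higher and the list's median is below 0.

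Homeobox and other developmental transcription factors had 16 members at 9 of 62 genes, 10 higher and 6 lower, with a median of 0.22. This was close to all members, of which 62.7% were higher with a median of 0.20. Besides CUX1 and SKI these included SOX4, with 42 reads in Mut4 and 103 in ZHX2, a fold of 0.873 (0.595 to 1.26), and NFATC1, a calcium-dependent factor of lymphocytes, with 25 reads in Mut4 and 30 in ZHX2, a fold of 1.78 (1.01 to 3.14). Chromatin modifiers had 7 members at 5 of 63 genes, 6 of them higher, with a median of 0.42. KDM4B, a histone H3 lysine demethylase gene, held 2 of them, the stronger with 68 reads in Mut4 and 113 in ZHX2 (fold 1.29, 0.939 to 1.76) and the other with 55 reads in Mut4 and 73 in ZHX2 (fold 1.61, 1.12 to 2.32). HDAC9, a histone deacetylase gene, had 37 reads in Mut4 and 45 in ZHX2, a fold of 1.76 (1.11 to 2.78).

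Ubiquitin and autophagy genes had 7 members at 3 of 42 genes, with a median of 0.17, 5 of them in RPTOR. The member in FBXL7, an F-box gene, had 23 reads in Mut4 and 16 in ZHX2, a fold of 3.08 (1.56 to 6.23). Kinases and phosphatases had 4 members at 2 of 60 genes, 3 of these in PTPRN2, with a median of 2.00. That median rests on the 2 Mut4-only members of PTPRN2, listed through the library in which they are high. The ZHX2-only members had log2 folds of 0.31 in PTPRN2 and -0.16 in PRKCA, and both intervals included 1.

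The B cell list had 2 members and the list of solute carriers and ion channels had 2, at 2 of 47 genes. PAX5, which keeps B cell identity, held a weak peak in intron 4 with 5 reads in Mut4 and 25 in ZHX2, a fold of 0.428 (0.128 to 1.14). TCF3, which encodes the E2A factors, had 11 reads in Mut4 and 25 in ZHX2, a fold of 0.942 (0.418 to 1.99). SLC7A5, which encodes the light chain that pairs with SLC3A2 in an amino acid transporter, held a peak at chr16:87853815-87854669 with 15 reads in Mut4 and 49 in ZHX2, a fold of 0.656 (0.341 to 1.19). The zinc transporter gene SLC39A11 had 23 reads in Mut4 and 54 in ZHX2, a fold of 0.912 (0.534 to 1.51). The intervals of all 4 included 1, so a difference was not detectable at this depth. Of the cytokine receptors, the 2 peaks nearest IL10RA had 52 and 25 reads in Mut4 against 69 and 28 in ZHX2, with folds of 1.61 and 1.91 and lower bounds of 1.10 and 1.07. The peak in TNFRSF1B, a TNF receptor gene, had 12 reads in Mut4 and 34 in ZHX2, a fold of 0.756, with an interval that included 1.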

How the data were processed

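The data were 1 ChIP and 1 input library per arm (DB cells labelled Mut4 or ZHX2), grouped by their titles, and the authors' table comparing the ChIP libraries at 8871 peaks. Its columns, per the file headers, are the authors' log2 fold change, log2 CPM, p-value and adjusted p-value of every peak, beside group, position, class and distance to the nearest start. The submitters' processing notes name hg38, Trim Galore 0.6.4, BWA 0.7.17, Picard 2.22.2-0, MACS2 2.2.6 and HOMER, with no role. Of the comparison's tool, the peak settings and any use of inputs the sources used here say nothing. The deposited fold is ZHX2 over Mut4 and was turned round here. Input libraries were not used.

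Reads per library were recovered by solving each deposited log2 fold and log2 CPM for whole numbers, which gave both back within 1e-09 at 8871 of 8871 peaks (100%). Totals were 271694 in Mut4 and 541900 in ZHX2, with scaled sizes in a ratio of 2.14 (ZHX2 over Mut4), so a fold compares shares of the reads in listed peaks, and a shift common to most sites cannot be seen. Depth outside the peaks is unknown. Intervals are exact 95% Clopper-Pearson intervals of the share of reads. Reads are not independent molecules, so the intervals and the limit of 3 reads for a count of 0 (11.4 CPM in Mut4, 5.34 CPM in ZHX2) cover counting error only. The recovery and the intervals were checked on simulated reads. The conditions were not tested, for lack of replicates.

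Members, lists and rules were chosen with earlier results of these data known. Named peaks were the 8 largest and 8 smallest folds at or above the members' median signal, the 6 strongest, up to 12 Mut4-only and all common members by signal, the 4 farthest, those beside the distance threshold, the genes with most members and up to 3 members per list. Members of HIPK2, IL3RA, RAP1GAP2, CNTNAP2, SHANK2, TENM4, CDH4, BCOR, TMEM181, SLC37A1, MNX1-AS2, AC091114.1 and of genes with 3 members were named after their values were seen, as were the neighbours BCL6 and LPP. Genes around peaks came from RefSeq coordinates (GRCh38.p14), and deposited genes were matched to RefSeq by Ensembl identifier, then symbol, then a synonym of a single gene. Alternatives were other scalings, distances, signal and length filters, merging within 1000 bp, 1 member per gene and a 4-fold threshold. Positions are those of the deposited table, which does not state the base from which starts are counted. Python 3.11.15, scipy 1.17.1 and pandas 2.3.3 were used. Some named peaks and 1 gene list are not reported here.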

Additional observations from a re-analysis of the deposited data

How the results depend on the processing

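Of 90 alternative values, 64 kept their direction and size, 3 changed sign and 23 counts moved by more than 1.5 times. Scaling decided the sign. With unscaled reads the median log2 fold of distal intronic peaks was -0.89, with 57 higher and 490 lower in Mut4 and 33 and 249 past 2-fold. Scaled to reads at contig peaks it was -0.74, with 76 higher, 471 lower, and 33 and 183 past 2-fold. Without the strongest contig peak it was -0.32, with 174 higher, 373 lower, and 36 and 81 past 2-fold. The difference to promoters kept its direction in all 13 alternatives computed for it. The scalings among these move members and promoters alike, so they could not change it. The other alternatives altered the set of members only, and each was set against all promoters. Counts moved with the number of peaks kept: past 2-fold 31 were lower with distances over 2000 bp and 10 over 10000 bp, where 129 were lower by sign. At or above the median signal 78 were higher and 38 lower, 10 and 4 past 2-fold. Past 2-fold 40 were higher among members of at least 300 bp and 36 among ZHX2-only members, an alternative chosen after seeing the data. A 4-fold threshold left 33 higher, all of them Mut4-only, and 2 lower. Alternatives on repeats and on motifs around peak centres were not run, since no genome was used here. No paired analysis was possible because each arm had 1 ChIP library. Depth limits single peaks: at 80.1% of members the interval included a fold of 1.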
